A study of Oryza sativa Japonica Group with 4 samples.

Results

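Anthers of sterile sstl-s panicles at the late pollen mitosis stage (sstl-s LpM) were compared with anthers of fertile SSTL-F panicles at the young microspore stage (SSTL-F YM). The comparison asks how far the transcripts of a late sterile anther lie from those of an early fertile anther, and in which genes they part. It covers the 23338 genes with 10 or more counts in either library, out of 35825 genes in the deposited tables. sstl-s plants are the sterile segregants of the semi-sterile mutant line sstl, which comes from a rice T-DNA insertion collection in the cultivar Tainung 67, and SSTL-F plants are fertile segregants that serve as the control. The study did not find the insertion to travel with the sterility, so the group is defined by its panicles and not by a known allele. All plants grew in a chamber at 28 °C by day and 25 °C at night with 16 h of light. There was 1 library for each genotype and stage, 4 in all. No difference therefore has a replicate check, no test was made, and each value describes these libraries. Genotype and stage both differ between sstl-s LpM and SSTL-F YM and cannot be told apart here. The other libraries, SSTL-F LpM and sstl-s YM, enter mainly as a second comparison of a late with an early anther that shares no library with the first.

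At the young microspore stage meiosis is complete, the microspores have been freed from the callose wall of the tetrad, and the tapetum, the inner layer of the anther wall, makes and exports the lipidic and phenolic precursors of the pollen wall. Around late pollen mitosis the tapetum has largely broken down by programmed cell death, and the pollen grain divides, imports sugars and builds its inner wall and reserves. A chain of bHLH transcription factors controls the life of the rice tapetum, in which TIP2 and TDR act with EAT1, and EAT1 switches on the aspartic protease genes AP25 and AP37 that promote cell death.

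Counts summed to 11076871 in sstl-s LpM and 10161675 in SSTL-F YM, and to 11523243 in SSTL-F LpM and 11559430 in sstl-s YM. Levels are given as CPM, the gene's count per 1000000 counts of its library, and 3 counts, taken as the limit of detection, equal 0.271 CPM in sstl-s LpM and 0.295 CPM in SSTL-F YM. Bracketed intervals are exact 95% intervals of the read shares, which cover counting error only. The tapetum markers were abundant in every library, with summed levels of 7172 CPM in sstl-s LpM and 6869 CPM in SSTL-F YM, and of 8536 CPM in SSTL-F LpM and 3895 CPM in sstl-s YM. All 8 late pollen markers (the pollen MADS genes MADS62, MADS63 and MADS68 and 5 beta-expansins) had fewer than 10 counts in all 4 libraries, and 5 of them had none. These transcripts of maturing pollen were thus at or near 0 also in the libraries labelled late pollen mitosis. The summed level of the photosynthesis markers was 985 CPM in sstl-s LpM and 398 CPM in SSTL-F YM. The carpel marker DROOPING LEAF was at 51.3 CPM in sstl-s LpM and 28.7 CPM in SSTL-F YM. The part of tissue makeup in the results below was not tested, and in bulk anthers fewer cells of a type and less RNA per cell cannot be told apart.

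Most genes had similar levels in the late sterile and the early fertile anther. The median log2 ratio of sstl-s LpM over SSTL-F YM was 0.08, with quartiles of -0.21 and 0.42, and 20332 genes (87.1%) lay within 2-fold. At least 2-fold higher in sstl-s LpM were 2235 genes (9.58%), and at least 2-fold lower were 771 genes (3.30%). The whole counting interval lay past 2-fold for 738 genes (3.16%) on the higher side and 268 genes (1.15%) on the lower side. The side of higher genes also reached further. At least 8-fold higher were 227 genes and at least 8-fold lower 20 genes. Of the 2235 higher genes, 68 had no count in SSTL-F YM, and of the 771 lower genes, 10 had no count in sstl-s LpM. Many of these genes carry no name: 1514 of the 2235 higher and 506 of the 771 lower genes have a RAP-DB identifier alone. The same holds for 16483 (70.6%) of all genes compared, so the lack of a name was not particular to these genes.

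SSTL-F YM was not the library closest to sstl-s LpM. Over the 24543 genes with 10 or more counts in any of the 4 libraries, 3373 (13.7%) were 2-fold or more apart between sstl-s LpM and SSTL-F YM. Set against SSTL-F LpM, the fertile anther of the same stage, sstl-s LpM had 2683 genes (10.9%) that far apart, and set against sstl-s YM it had 2947 (12%). The count was 4184 (17.0%) for SSTL-F LpM over SSTL-F YM and 3223 (13.1%) for sstl-s YM over SSTL-F YM. Each other library had more genes higher than lower when set over SSTL-F YM. The higher and lower counts were 2515 and 858 for sstl-s LpM, 3029 and 1155 for SSTL-F LpM, and 2424 and 799 for sstl-s YM. The tilt to higher genes was thus not particular to sstl-s LpM. These pairs share libraries, so the counts stand side by side only. The pair that was furthest apart was SSTL-F LpM and sstl-s YM, with 5485 genes (22.3%).

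**Figure D1:**
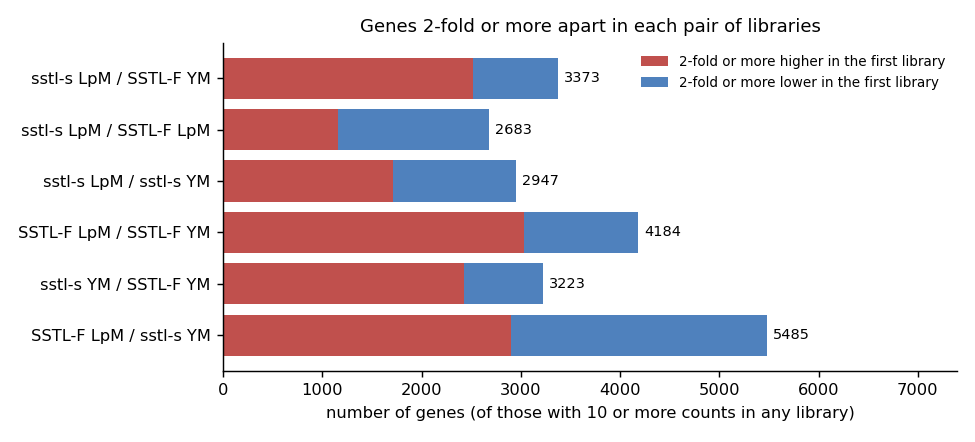
Number of genes at least 2-fold apart in each of the 6 pairs of libraries, among the 24543 genes with 10 or more counts in any library. Red bars count genes higher in the first library of the pair and blue bars genes lower in it. The shortest bar is sstl-s LpM over SSTL-F LpM (2683 genes), not the top bar of sstl-s LpM over SSTL-F YM (3373 genes).

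To set genes with a stage difference in both genotypes beside genes with a genotype difference at both stages, the ratio of sstl-s LpM over SSTL-F YM, called the sterile-late ratio below, was set against the ratio of SSTL-F LpM over sstl-s YM, called the fertile-late ratio. Both put a late anther over an early one, the genotypes are swapped, and no library enters both. A gene with the higher level in the late library of both comparisons is positive in both ratios, while opposite signs mean that the higher library had the same genotype in both. Across the 23338 genes the fertile-late ratio had a median of -0.11, with 2439 genes (10.5%) at least 2-fold higher in SSTL-F LpM and 2227 genes (9.54%) at least 2-fold lower. The 2 log2 ratios were weakly related across genes (Pearson r = 0.318, Spearman rho = 0.119, slope 0.245), as a description of genes that are not independent of each other.

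The relation lay mostly in the genes with a large fertile-late ratio, in which, as in the other ratio, stage and genotype both differ. Among the 239 genes at least 8-fold higher in SSTL-F LpM than in sstl-s YM, the median sterile-late log2 ratio was 2.50, and 186 genes (77.8%) of that bin passed 2-fold upwards in the sterile-late ratio as well. So did 264 (49.9%) of the 529 genes that were 4- to 8-fold higher, and 438 (26.2%) of the 1671 genes that were 2- to 4-fold higher. On the lower side, the 203 genes at least 8-fold lower in SSTL-F LpM than in sstl-s YM had a median sterile-late log2 ratio of -1.35, and 127 (62.6%) passed 2-fold downwards. The size of the sterile-late ratio in this bin was thus below the 8-fold that placed the genes in it. The 294 genes that were 4- to 8-fold lower split, with 75 at least 2-fold higher and 68 at least 2-fold lower in sstl-s LpM. The next bin, 1730 genes that were 2- to 4-fold lower, had a median of 0.20, on the other side of 0.

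Sorted by both ratios, 888 genes were at least 2-fold higher in the late library of both comparisons, which is 39.7% of the genes higher in sstl-s LpM and 36.4% of those higher in SSTL-F LpM. At least 2-fold lower in both late libraries were 308 genes, 39.9% of the genes lower in sstl-s LpM and 13.8% of those lower in SSTL-F LpM. The higher library had the same genotype in others: 367 genes were higher in the sterile library of both comparisons (16.4% of the genes higher in sstl-s LpM), and 109 genes were higher in the fertile library of both (14.1% of the genes lower in sstl-s LpM). Beside these shares of the sstl-s LpM lists, 10.5% of all genes were higher and 9.54% lower in SSTL-F LpM than in sstl-s YM. Within genotypes, the 888 genes passed 2-fold from YM to LpM in both sstl-s and SSTL-F except for 35 that did so in sstl-s alone and 149 in SSTL-F alone, and 224 of the 308 genes passed 2-fold downwards in both. The same libraries make up these ratios, so a gene past 2-fold in both selecting ratios must pass it within sstl-s, SSTL-F or both. The split therefore adds no separate support. The remaining 980 higher and 354 lower genes were within 2-fold in the fertile-late ratio.

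**Figure D2:**
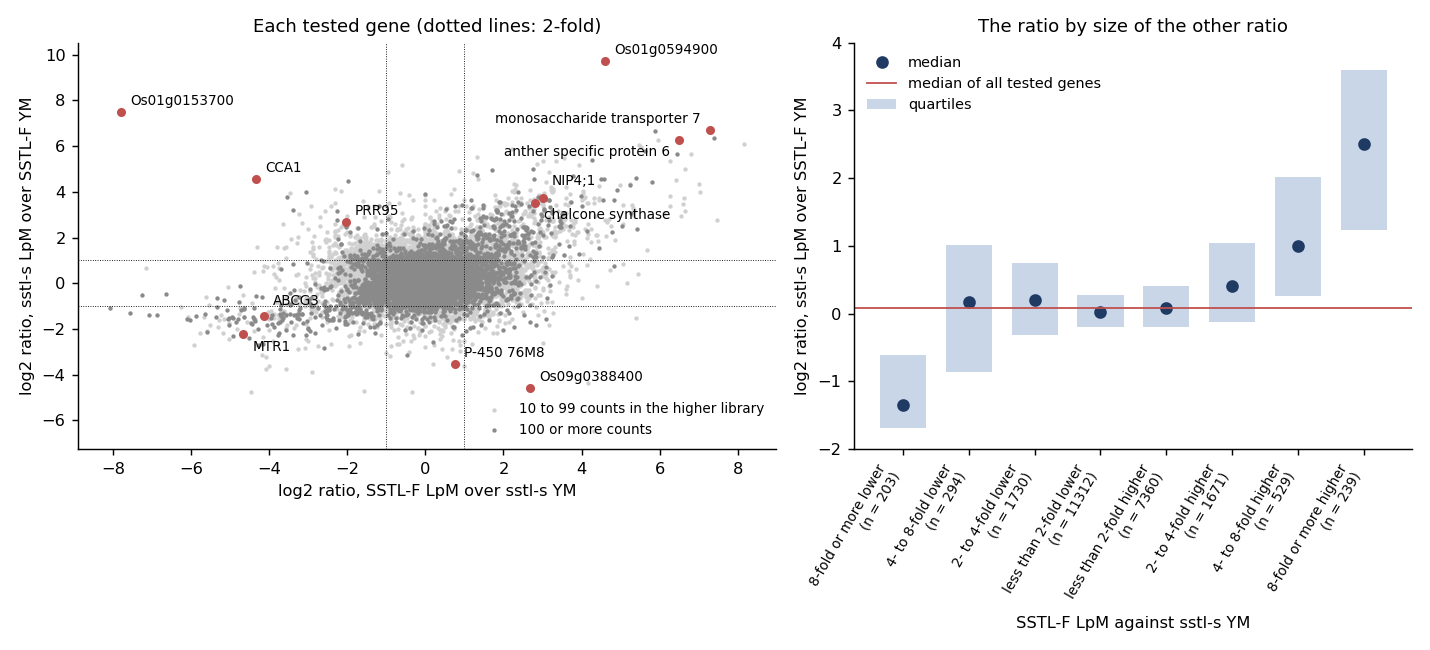
Left, the log2 ratio of sstl-s LpM over SSTL-F YM (vertical) against the log2 ratio of SSTL-F LpM over sstl-s YM (horizontal) for each of the 23338 genes, dark grey with 100 or more counts in sstl-s LpM or SSTL-F YM, red for genes described in the text. Right, median (points) and quartiles (bars) of the vertical ratio in bins of the horizontal ratio. Bin medians run from -1.35 in the lowest bin to 2.50 in the highest, and the middle bins lie near the all-gene median of 0.08 (red line).

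Some genes that were abundant in both early libraries and low in the late fertile one were still detected in the late sterile anther, below their level in the early fertile one. Os01g0579000, a gene without a name in the tables, was at 193 CPM in sstl-s LpM and 405 CPM in SSTL-F YM, and at 0.95 CPM in SSTL-F LpM and 281 CPM in sstl-s YM. Os08g0545800 was at 427 CPM in sstl-s LpM and 1137 CPM in SSTL-F YM, and at 5.99 CPM in SSTL-F LpM and 713 CPM in sstl-s YM. These 2 genes were chosen after their values were seen, as high-count genes with a very low fertile-late ratio. In both, sstl-s LpM stood below SSTL-F YM by less than 3-fold and SSTL-F LpM stood apart from the other 3 libraries. Other early genes were not detected, such as the row cytochrome P450, CINNAMATE-4-HYDROXYLASE, of phenylpropanoid synthesis, also picked after its values were seen, with no count in sstl-s LpM and 25 counts in SSTL-F YM, and none in SSTL-F LpM and 21 in sstl-s YM.

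ABCG3, an ABC transporter of the tapetum needed for the pollen wall, was at 38 CPM in sstl-s LpM and 104 CPM in SSTL-F YM (log2 ratio -1.44, -1.61 to -1.28). In the other pair it was at 5.55 CPM in SSTL-F LpM and 98.5 CPM in sstl-s YM, a log2 ratio of -4.13. MTR1, a fasciclin-like protein that the male reproductive cells secrete and that tapetum and microspores both need, followed the same order. It was at 12.9 CPM in sstl-s LpM and 61.5 CPM in SSTL-F YM (log2 ratio -2.24, -2.52 to -1.99), and at 2.17 CPM in SSTL-F LpM and 57.3 CPM in sstl-s YM. Cyclin B1-4, a cyclin of the G2 to M transition, was at 21.1 CPM in sstl-s LpM and 57.3 CPM in SSTL-F YM (log2 ratio -1.43, -1.66 to -1.22), with 2.6 CPM in SSTL-F LpM and 35.1 CPM in sstl-s YM. MTR1 was named after its values were seen.

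The meiosis and recombination genes as a list were lower in the late sterile anther, by a margin that left most of them within 2-fold. Of 16 measured genes, 5 passed 2-fold downwards and none upwards (all genes: 3.30% lower, 9.58% higher), and their median log2 ratio was -0.55. Their summed level was 334 CPM in sstl-s LpM and 441 CPM in SSTL-F YM, and 218 CPM in SSTL-F LpM and 558 CPM in sstl-s YM. The recombinase gene DMC1B was at 5.51 CPM in sstl-s LpM and 14.3 CPM in SSTL-F YM (log2 ratio -1.36, -1.83 to -0.93). ZIP4, a crossover protein, was at 3.97 CPM in sstl-s LpM and 10.7 CPM in SSTL-F YM (-1.41, -1.97 to -0.92). The other genes past 2-fold were MTOPVIB, which takes part in making the meiotic double-strand breaks, with a log2 ratio of -1.24, RICE MEIOTIC CROSSOVER 1, with -1.04, and the pairing protein gene PAIR3, at 10.2 CPM in sstl-s LpM and 20.6 CPM in SSTL-F YM. The highest ratio was that of the meiotic F-box gene, 0.43 (0.06 to 0.81), and MEL1, an Argonaute protein of germ cells, was at 82.9 CPM in sstl-s LpM and 74.4 CPM in SSTL-F YM (0.16, 0.02 to 0.30).

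In the callose list, GSL5, the callose synthase that lays down the wall around meiocytes, was lowest, at 6.05 CPM in sstl-s LpM and 19.4 CPM in SSTL-F YM (log2 ratio -1.67, -2.10 to -1.27). It was at 1.56 CPM in SSTL-F LpM and 34.1 CPM in sstl-s YM. The second of the 2 lower genes among 8 measured was beta-1,3-glucanase 8, at 11.6 CPM in sstl-s LpM and 31.4 CPM in SSTL-F YM, an enzyme class that hydrolyses callose. None of the list was at least 2-fold higher (all genes: 3.30% lower, 9.58% higher). Of 70 measured cell cycle and DNA replication genes, 1 was higher (a D-type cyclin-interacting protein, log2 ratio 1.92) and 1 lower (cyclin B1-4). These are 1.43% each, beside 9.58% and 3.30% of all genes, and the median was -0.04. Cyclins B1-1, B1-2, B2-1, B2-2, A1-1, A1-3 and A2-1 leaned lower within 2-fold, with log2 ratios from -0.94 to -0.26. Cyclins A3-1, A3-2, D5-1 and D5-2 leaned the other way, at 0.41, 0.08, 0.90 and 0.75. In SSTL-F LpM over sstl-s YM 3 of the 70 were higher and 18 lower (all genes: 10.5% and 9.54%), with a median of -0.42. None of 7 histone genes passed 2-fold in the sterile-late ratio, and the histone medians were -0.03 for that ratio and -0.62 for the fertile-late ratio.

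Some of the most abundant early transcripts belonged to lipid metabolism. Acetyl-CoA carboxylase 1, which makes the malonyl-CoA used for fatty acid synthesis, was at 1004 CPM in sstl-s LpM and 3587 CPM in SSTL-F YM (log2 ratio -1.84, -1.87 to -1.81), and at 890 CPM in SSTL-F LpM and 2122 CPM in sstl-s YM. The non-specific lipid transfer protein 1.1 was at 562 CPM in sstl-s LpM and 1435 CPM in SSTL-F YM (-1.35, -1.40 to -1.31), and at 72.1 CPM in SSTL-F LpM and 647 CPM in sstl-s YM. Lipid transfer proteins carry lipids between membranes and through the wall space, and in the anther they are made by the tapetum. Of 40 measured members, 9 (22.5%) were higher and 5 (12.5%) lower in sstl-s LpM, beside 9.58% and 3.30% of all genes (median log2 ratio 0.25). The lower members 1.1, 1.2, 1.8 and 2.2 were abundant, at 204 to 1734 CPM in SSTL-F YM, and the summed level of the list was 3686 CPM in sstl-s LpM and 5230 CPM in SSTL-F YM. A heat shock and a WRKY gene were lower by a wider margin. HSP101, a chaperone that dissolves protein aggregates, was at 7.94 CPM in sstl-s LpM and 33.3 CPM in SSTL-F YM (-2.05, -2.42 to -1.72), and the WRKY factor gene 17 was at 3.88 CPM in sstl-s LpM and 17.6 CPM in SSTL-F YM (-2.16, -2.70 to -1.69).

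Of 10 measured tapetum regulators, 2 (20%) were at least 2-fold lower and none higher in sstl-s LpM, beside 3.30% and 9.58% of all genes. TIP2 (bHLH142) was at 37.6 CPM in sstl-s LpM and 97.8 CPM in SSTL-F YM (log2 ratio -1.38, -1.55 to -1.21), and at 14.9 CPM in SSTL-F LpM and 97.7 CPM in sstl-s YM. APOPTOSIS INHIBITOR 5, a nuclear protein that the tapetum needs for its timely death, was at 51.5 CPM in sstl-s LpM and 110 CPM in SSTL-F YM (-1.09, -1.24 to -0.95). TDR was within 2-fold, at 434 CPM in sstl-s LpM and 707 CPM in SSTL-F YM (-0.70, -0.76 to -0.65). EAT1 leaned the other way, at 292 CPM in sstl-s LpM and 171 CPM in SSTL-F YM (0.77, 0.69 to 0.86), and was at 368 CPM in SSTL-F LpM and 108 CPM in sstl-s YM (1.77). Both TIP2 and EAT1 thus lay, in sstl-s LpM, between SSTL-F YM and SSTL-F LpM. GAMYB, a gibberellin-regulated MYB factor, the receptor kinase gene MSP1 and the PHD-finger gene PTC1 had log2 ratios of -0.12, -0.28 and -0.40. UDT1, an early tapetum factor, was at 6.32 CPM in sstl-s LpM and 4.13 CPM in SSTL-F YM (0.60, 0.04 to 1.20), bHLH138 had a log2 ratio of 0.41, and TPD1-like 1A had too few counts (12 in sstl-s LpM and 15 in SSTL-F YM) to show a 2-fold difference. The list had a median of -0.34, beside 0.08 over all genes.

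The genes of sporopollenin synthesis, exine formation and other tapetum products went in both directions. Of 16 measured genes 3 were at least 2-fold higher and 3 at least 2-fold lower in sstl-s LpM (18.8% each, beside 9.58% and 3.30% of all genes), the median log2 ratio was 0.14, and the summed levels were close, 19664 CPM in sstl-s LpM and 18944 CPM in SSTL-F YM. In the other pair the sums were 22878 CPM in SSTL-F LpM and 10259 CPM in sstl-s YM, with a median log2 ratio of 1.15. On the route that builds the fatty-acid part of sporopollenin, CYP704B2, CYP703A3 and polyketide synthase 1 were within 2-fold. TKPR1 and DPW passed 2-fold in opposite directions and are described below. The fatty acid hydroxylase CYP704B2 was at 3562 CPM in sstl-s LpM and 2739 CPM in SSTL-F YM (log2 ratio 0.38), CYP703A3 at 2604 CPM in sstl-s LpM and 3040 CPM in SSTL-F YM (-0.22), and polyketide synthase 1 at 4493 CPM in sstl-s LpM and 3968 CPM in SSTL-F YM (0.18). The exporter ABCG15 and the wax gene WDA1 had log2 ratios of 0.18 and 0.11.

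The 3 lower genes of this list were TKPR1, the reductase that acts after the polyketide synthases, P-450 86A7-2, and ABCG3, which is described above. NO POLLEN 1, an oxidoreductase of exine and Ubisch body formation, was just within 2-fold. TKPR1 was at 1918 CPM in sstl-s LpM and 3915 CPM in SSTL-F YM (log2 ratio -1.03, -1.05 to -1.01), and at 1857 CPM in SSTL-F LpM and 1595 CPM in sstl-s YM. NO POLLEN 1 was at 706 CPM in sstl-s LpM and 1407 CPM in SSTL-F YM (-0.99, -1.03 to -0.95), and at 958 CPM in SSTL-F LpM and 473 CPM in sstl-s YM. Both were highest in SSTL-F YM, as was polyketide synthase 10, a gene picked after its values were seen, at 1031 CPM in sstl-s LpM and 2080 CPM in SSTL-F YM. P-450 86A7-2 had the lowest ratio of the list, at 26.5 CPM in sstl-s LpM and 99.8 CPM in SSTL-F YM (-1.91, -2.10 to -1.72), while its relatives 86A7-1 and 86A7-3 were at 0.64 and 0.04 on the log2 scale. ABCG26, a second lipid exporter of the anther, had a log2 ratio of -0.66.

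The 3 genes on the higher side were AP25, RAFTIN1 and DPW. AP25 was at 973 CPM in sstl-s LpM and 186 CPM in SSTL-F YM (log2 ratio 2.39, 2.32 to 2.46), and at 1573 CPM in SSTL-F LpM and 309 CPM in sstl-s YM (2.35). AP37 was within 2-fold, at 179 CPM in sstl-s LpM and 125 CPM in SSTL-F YM (0.51, 0.41 to 0.62), and was at 194 CPM in SSTL-F LpM and 23.2 CPM in sstl-s YM (3.06). RAFTIN1, a protein of the Ubisch bodies that carry wall material from the tapetum, was at 227 CPM in sstl-s LpM and 97.3 CPM in SSTL-F YM (1.22, 1.11 to 1.33), below its 506 CPM in SSTL-F LpM. DPW, a fatty acyl reductase of exine and cuticle, was at 3039 CPM in sstl-s LpM and 1330 CPM in SSTL-F YM (1.19, 1.16 to 1.22), and at 2831 CPM in SSTL-F LpM and 967 CPM in sstl-s YM. The RTS gene had 2 counts in all and was not measured.

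**Figure D3:**
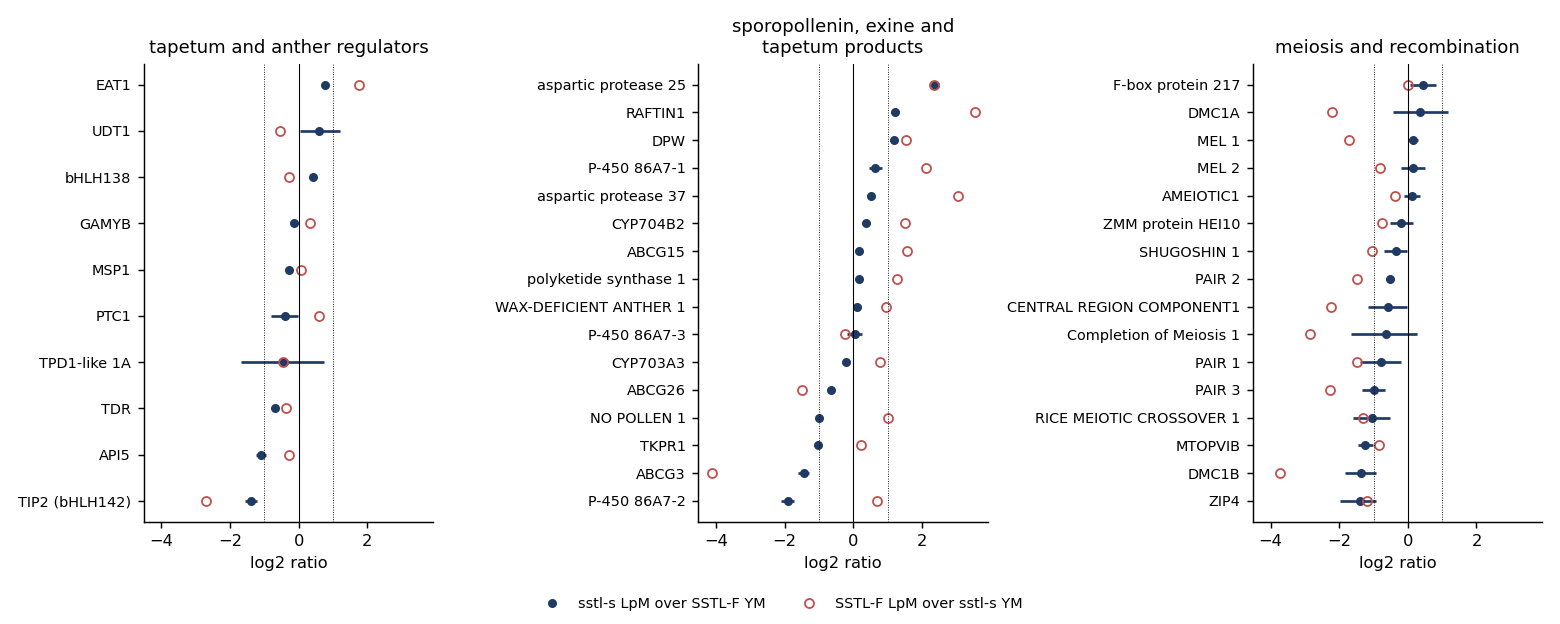
Log2 ratios of sstl-s LpM over SSTL-F YM (filled points, with 95% counting intervals) and of SSTL-F LpM over sstl-s YM (open points) for the 10 tapetum regulators, 16 sporopollenin and tapetum product genes and 16 meiosis genes measured. Dotted lines mark 2-fold. Most filled points of the sporopollenin list lie near 0 (median 0.14) while most open points lie to their right (median 1.15), and in the meiosis list the open points lie further to the left (medians -0.55 and -1.39).

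A group of genes that was nearly silent in the early fertile anther was plainly present in the late sterile one, and most of it was also late in the other pair. Anther specific protein 6 was at 718 CPM in sstl-s LpM and 9.05 CPM in SSTL-F YM (log2 ratio 6.29, 6.01 to 6.62), and at 2266 CPM in SSTL-F LpM and 24.9 CPM in sstl-s YM (6.50). Beta-amylase 2, of the family that releases maltose from starch, was at 44.1 CPM in sstl-s LpM and 0.787 CPM in SSTL-F YM (5.65, 4.82 to 7.03), and at 105 CPM in SSTL-F LpM and 1.12 CPM in sstl-s YM. Another row with the name beta-amylase 2 did not share this, with a sterile-late log2 ratio of 0.42 and a fertile-late one of -0.96. Monosaccharide transporter 7, a hexose carrier, had 107 counts (9.66 CPM) in sstl-s LpM and none in SSTL-F YM, at least 32.7-fold higher over the floor of 3 counts per library, and was at 80.8 CPM in SSTL-F LpM and 0.433 CPM in sstl-s YM. Anther specific protein 6, the beta-amylase 2 row given first and monosaccharide transporter 7 were each further up in SSTL-F LpM than in sstl-s LpM.

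The largest ratio of the comparison was that of Os01g0594900, a gene without a name, with 877 counts (79.2 CPM) in sstl-s LpM and none in SSTL-F YM, at least 268-fold higher. It was at 20.9 CPM in SSTL-F LpM and 0.779 CPM in sstl-s YM, so that of the late libraries the sterile one was the higher. NAC10, of a family of plant transcription factors, had the same order, with 10.5 CPM in sstl-s LpM and 1 count in SSTL-F YM (ratio 106, 18.7 to 4239), and 4.17 CPM in SSTL-F LpM and none in sstl-s YM. Subtilisin 46, a serine protease, was at 15.6 CPM in sstl-s LpM and 1 count in SSTL-F YM (ratio 159, 28.1 to 6304), and at 43.8 CPM in SSTL-F LpM and 0.173 CPM in sstl-s YM. The other genes among the 12 highest with 100 or more counts were Os03g0666600, glutamate dehydrogenase 3, Os08g0125300, DREB1B, which is a factor of cold and drought responses, and Os03g0228200, each with 1 to 3 counts in SSTL-F YM and 100 to 215 counts in sstl-s LpM. All of them were also higher in SSTL-F LpM than in sstl-s YM, with log2 ratios from 1.32 to 5.88. The last of the 12, Os01g0153700, was not, and is described with the genes higher in both sterile libraries.

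Of 60 measured proteases of the classes that act in cell death and protein turnover, 15 (25%) were at least 2-fold higher and 1 (1.67%) lower in sstl-s LpM, beside 9.58% and 3.30% of all genes. The summed level was 9454 CPM in sstl-s LpM and 5419 CPM in SSTL-F YM, against 12988 CPM in SSTL-F LpM and 3976 CPM in sstl-s YM. The most abundant of them, subtilisin 42, was at 5201 CPM in sstl-s LpM and 2204 CPM in SSTL-F YM (log2 ratio 1.24, 1.22 to 1.26). Subtilisin 12 was at 249 CPM in sstl-s LpM and 23.3 CPM in SSTL-F YM (3.41, 3.22 to 3.61). A cysteine protease described by the study as similar to Ervatamin C, Os09g0381400, was at 48.3 CPM in sstl-s LpM and 8.46 CPM in SSTL-F YM (2.50, 2.18 to 2.86), below its 158 CPM in SSTL-F LpM. The list's median log2 ratio was 0.31.

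Among 53 measured genes of sugar transport and sucrose use, 13 (24.5%) were at least 2-fold higher and 4 (7.55%) lower in sstl-s LpM, both above the shares of all genes (9.58% and 3.30%), and the median log2 ratio was 0.21. Of the 13 higher genes 8 were SWEET sugar exporters. SWEET15 was at 39.1 CPM in sstl-s LpM and 5.61 CPM in SSTL-F YM (2.78, 2.40 to 3.23), and at 21.6 CPM in SSTL-F LpM and 2.34 CPM in sstl-s YM. Hexokinase-7, which phosphorylates imported hexose, was at 590 CPM in sstl-s LpM and 84.8 CPM in SSTL-F YM (2.80, 2.70 to 2.90), and sucrose synthase 2 was at 4486 CPM in sstl-s LpM and 2306 CPM in SSTL-F YM (0.96, 0.94 to 0.98). The lowest member with 100 or more counts was cell-wall invertase 4, which splits sucrose outside the cell, at 21.2 CPM in sstl-s LpM and 48.8 CPM in SSTL-F YM (-1.20, -1.43 to -0.98).

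The members with the highest ratio at 100 or more counts in 6 lists (aquaporins, phenylpropanoid genes, pectin enzymes, cellulose and glucan genes, MYB factors and GDSL esterases) were high in both late libraries. The medians of these lists were near that of all genes, from -0.10 to 0.25. The aquaporin-family gene NIP4;1 was at 444 CPM in sstl-s LpM and 33.2 CPM in SSTL-F YM (log2 ratio 3.74, 3.58 to 3.91), and at 801 CPM in SSTL-F LpM and 99.8 CPM in sstl-s YM. Chalcone synthase, the entry enzyme of flavonoid synthesis, was at 119 CPM in sstl-s LpM and 10.4 CPM in SSTL-F YM (11.4-fold, 9.35 to 14), and at 204 CPM in SSTL-F LpM and 29.1 CPM in sstl-s YM. Pectin methylesterase 26, which modifies wall pectin, was at 46 CPM in sstl-s LpM and 5.61 CPM in SSTL-F YM (3.01, 2.64 to 3.46). The cellulase-type hydrolase GH9B13, MYB10 and GDSL esterase 87 had log2 ratios of 2.95, 2.73 and 2.57. All 6 were lower in sstl-s LpM than in SSTL-F LpM.

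**Figure D4:**
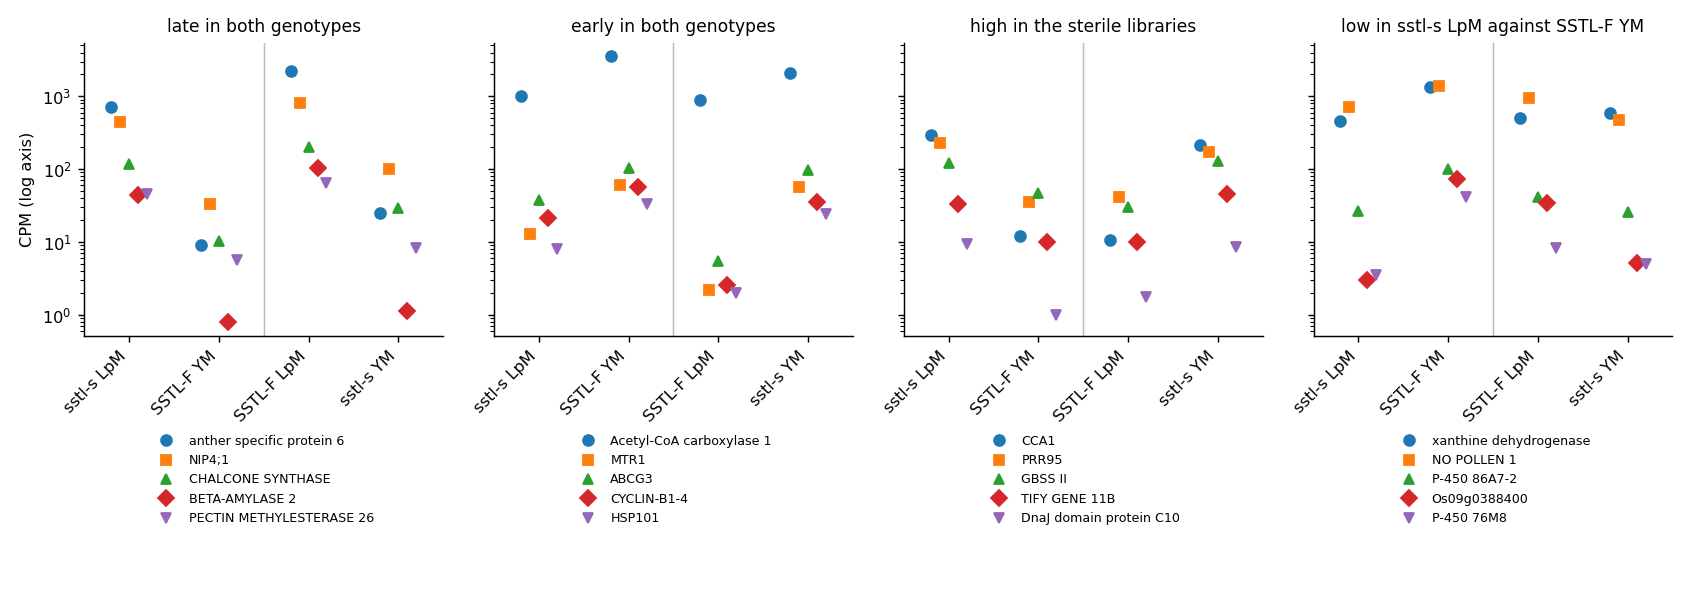
CPM on a log axis of 20 genes in the 4 libraries, in 4 panels, with the pair compared left of the grey line and the other pair right of it. Genes of the first panel (late in both genotypes) are high in sstl-s LpM and SSTL-F LpM, those of the second are lowest in SSTL-F LpM or sstl-s LpM, those of the third are high in the sterile libraries, and those of the fourth are low in sstl-s LpM against SSTL-F YM. CCA1 stands at 292 CPM in sstl-s LpM and 12.2 CPM in SSTL-F YM.

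Another set of genes was highest in the late fertile anther, and stood in the late sterile anther within 2-fold of the early fertile one. All are among the genes that the study names. The study selected them from expression clusters of these same libraries, so a higher level in SSTL-F than in sstl-s was part of that choice. Class III peroxidase 39 was at 50.6 CPM in sstl-s LpM and 62.9 CPM in SSTL-F YM (log2 ratio -0.31, -0.48 to -0.15), and at 172 CPM in SSTL-F LpM and 36.6 CPM in sstl-s YM (2.23). Another class III peroxidase, Os11g0210100, was at 17.2 CPM in sstl-s LpM and 27.8 CPM in SSTL-F YM (-0.68, -0.96 to -0.42), and at 68.6 CPM in SSTL-F LpM and 13.4 CPM in sstl-s YM (2.35). Such peroxidases work in the cell wall, where they cross-link or loosen its polymers. Vacuolar invertase 2 was at 38.9 CPM in sstl-s LpM and 72.3 CPM in SSTL-F YM (-0.89, -1.07 to -0.72), and at 139 CPM in SSTL-F LpM and 38.8 CPM in sstl-s YM. PAL1, the first enzyme of phenylpropanoid synthesis, was at 614 CPM in sstl-s LpM and 925 CPM in SSTL-F YM (-0.59, -0.64 to -0.55), and at 1224 CPM in SSTL-F LpM and 499 CPM in sstl-s YM. In PAL1 and vacuolar invertase 2 the late fertile anther was itself within 2-fold of the early fertile one, with log2 ratios of SSTL-F LpM over SSTL-F YM of 0.40 and 0.94. Another row with the name PAL1 had a sterile-late log2 ratio of 0.07 and a fertile-late one of -0.57. GDSL esterases 63, 73 and 77 had sterile-late log2 ratios of 0.57, -0.39 and 0.07 and fertile-late log2 ratios of 2.15, 1.87 and 2.25. The polygalacturonase-like gene Os05g0542800 had log2 ratios of -0.51 and 2.19.

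In the families of these genes the median of the fertile-late ratio was above that of the sterile-late ratio. Of 52 measured class III peroxidases 8 (15.4%) were at least 2-fold higher and 4 (7.69%) lower in sstl-s LpM than in SSTL-F YM (all genes: 9.58% and 3.30%), and their median log2 ratio was 0.07, beside 0.08 over all genes. In SSTL-F LpM over sstl-s YM, 30 of the 52 were higher and 2 lower (all genes: 10.5% and 9.54%), with a median of 1.07. For 66 phenylpropanoid and flavonoid genes the counts were 16 higher and 6 lower with a median of 0.18 in the first comparison, and 33 higher and 4 lower in the second. For 64 GDSL esterases and lipases they were 10 and 5 (median 0.07) in the first and 27 and 6 (0.74) in the second. Lipid transfer proteins had medians of 0.25 and 1.02, and 51 expansins and arabinogalactan proteins, which act in wall loosening and at the cell surface, had medians of -0.06 and 0.69.

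**Figure D5:**
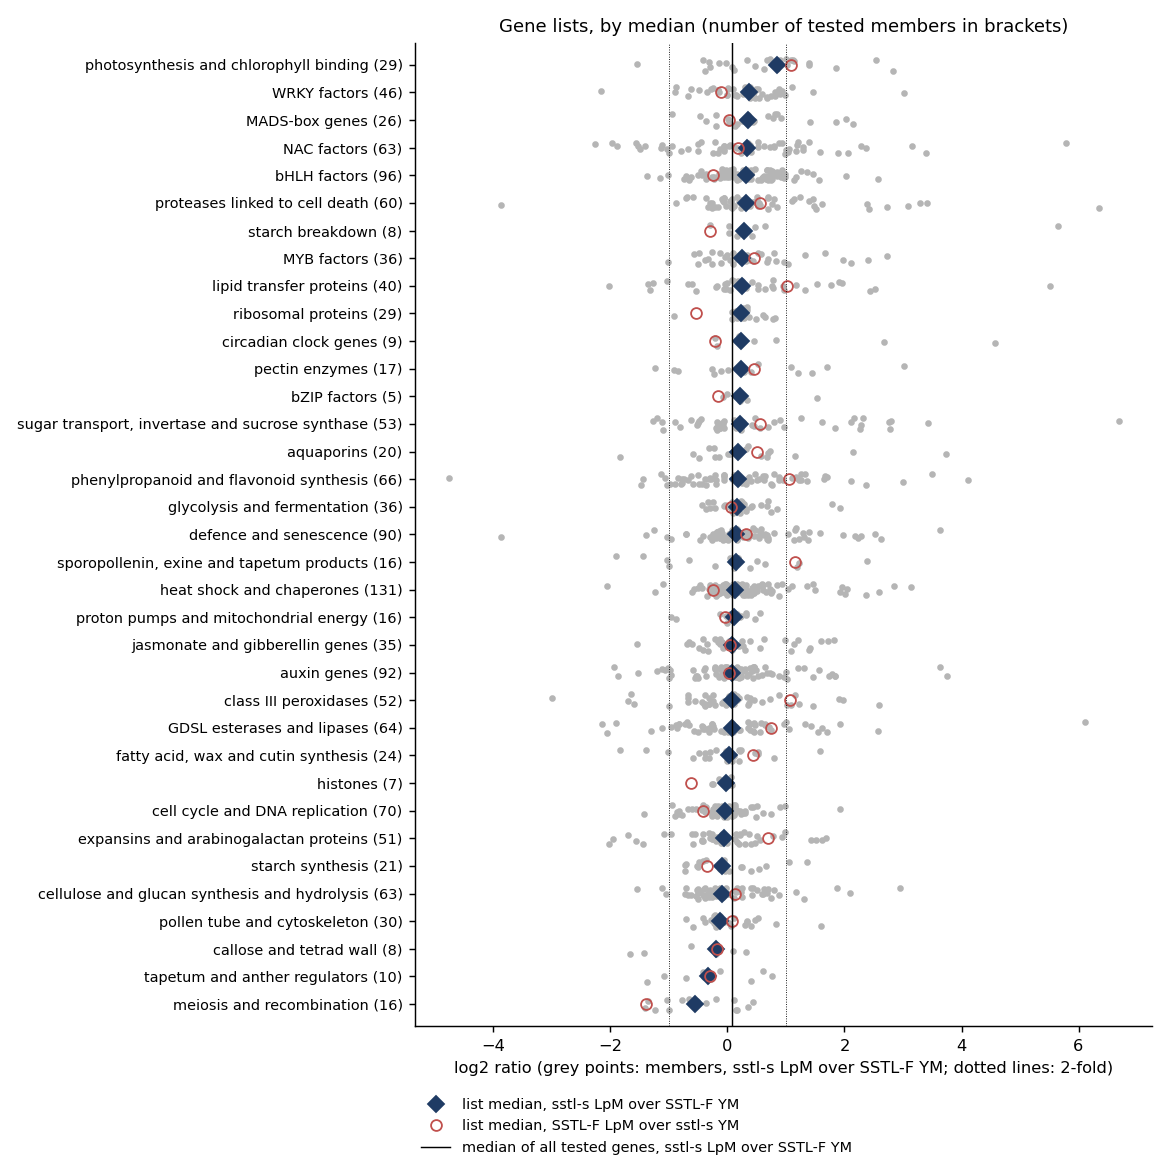
Log2 ratio of sstl-s LpM over SSTL-F YM for the measured members of 35 gene lists (grey points), their medians (filled diamonds) and the medians of the same members for SSTL-F LpM over sstl-s YM (open circles), sorted by the first median. The black line is the all-gene median of 0.08. Photosynthesis genes have the highest median (0.84) and meiosis genes the lowest (-0.55), and in peroxidases, phenylpropanoid genes, lipid transfer proteins and sporopollenin genes the open circle lies between 1.02 and 1.15 while the diamond lies at 0.07 to 0.25.

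Of the 367 genes that were higher in the sterile library of both comparisons, 216 passed 2-fold between sstl-s and SSTL-F at both stages, 14 at LpM alone and 137 at YM alone. A pass at LpM or at YM was fixed by the way these genes were chosen. CCA1, a morning-phased MYB-type factor of the circadian clock, was at 292 CPM in sstl-s LpM and 12.2 CPM in SSTL-F YM (log2 ratio 4.57, 4.32 to 4.85), and at 10.5 CPM in SSTL-F LpM and 215 CPM in sstl-s YM (-4.34). The sterile library was the higher one at each stage, with 1 library for each genotype and stage. PRR95, a pseudo-response regulator of the clock, had the same order, at 228 CPM in sstl-s LpM and 35.6 CPM in SSTL-F YM (2.68, 2.52 to 2.84), and at 41.6 CPM in SSTL-F LpM and 171 CPM in sstl-s YM. PRR59 and PRR73 leaned that way within 2-fold, at log2 ratios of 0.83 and 0.46. The rest of the clock list did not share this order. LATE ELONGATED HYPOCOTYL was at 5.87 CPM in sstl-s LpM and 6.59 CPM in SSTL-F YM (-0.17, -0.68 to 0.35). In the other pair it was at 14 CPM in SSTL-F LpM and 5.71 CPM in sstl-s YM (1.28). ZEITLUPE 1, ZEITLUPE 2 and EARLY FLOWERING 3.2 had sterile-late log2 ratios of 0.20, 0.23 and 0.20. GIGANTEA, an evening-phased clock gene, was at 887 CPM in sstl-s LpM and 1030 CPM in SSTL-F YM (-0.22, -0.26 to -0.18). The hour of sampling is not given in the sources used here, and the part of sampling time in these values was not tested. The list of 9 clock genes was drawn up after these values were seen.

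Os01g0153700, a gene without a name, was present in both sterile libraries and absent from both fertile ones, with 187 counts (16.9 CPM) in sstl-s LpM and none in SSTL-F YM, at least 57.2-fold higher, and with none in SSTL-F LpM and 220 counts (19 CPM) in sstl-s YM. It was the one gene of the 12 highest that was lower in SSTL-F LpM than in sstl-s YM. GBSS II, the granule-bound synthase that makes amylose outside the endosperm, was at 123 CPM in sstl-s LpM and 47.7 CPM in SSTL-F YM (log2 ratio 1.36, 1.21 to 1.51), and at 29.8 CPM in SSTL-F LpM and 131 CPM in sstl-s YM. It was 1 of 2 higher genes (9.52%) among 21 measured genes of starch synthesis, beside 9.58% of all genes. The median of that list was -0.09. TIFY11B, of the family of jasmonate response repressors, was at 33.5 CPM in sstl-s LpM and 10.1 CPM in SSTL-F YM (1.72, 1.41 to 2.05), and at 9.98 CPM in SSTL-F LpM and 44.9 CPM in sstl-s YM. DnaJ domain protein C10, a co-chaperone, was at 9.39 CPM in sstl-s LpM and 0.984 CPM in SSTL-F YM (3.14, 2.32 to 4.36), and at 1.74 CPM in SSTL-F LpM and 8.65 CPM in sstl-s YM.

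Fewer genes, 109, were higher in the fertile library of both comparisons. They were 14.1% of the genes lower in sstl-s LpM, beside 10.5% of all genes higher in SSTL-F LpM than in sstl-s YM. Of the 109, 55 passed 2-fold at both stages, and a pass at LpM or at YM was again fixed by the choice. The lowest ratio among genes with 100 or more counts belonged to this group. Os09g0388400, described by the study as similar to hydrolases of the HAD superfamily, was at 2.98 CPM in sstl-s LpM and 74 CPM in SSTL-F YM (log2 ratio -4.59, -5.18 to -4.13), and at 33.8 CPM in SSTL-F LpM and 5.19 CPM in sstl-s YM (2.68). Serine carboxypeptidase 61, a peptide-cleaving enzyme, was at 8.85 CPM in sstl-s LpM and 29 CPM in SSTL-F YM, and at 50.2 CPM in SSTL-F LpM and 7.7 CPM in sstl-s YM. Os10g0150400, Os10g0150600 and Os10g0150800, which follow each other closely in identifier order, were at 91.3, 40.8 and 24.1 CPM in sstl-s LpM and at 224, 102 and 103 CPM in SSTL-F YM. In the other pair they were at 530, 280 and 150 CPM in SSTL-F LpM and at 141, 62.7 and 72.8 CPM in sstl-s YM. The last 4 genes were chosen after their values were seen, and sequence shared among neighbours was not examined. MYB12, lowest of 36 MYB factors with enough counts, was at 11.2 CPM in sstl-s LpM and 22.8 CPM in SSTL-F YM (-1.02, -1.35 to -0.71), and at 17.4 CPM in SSTL-F LpM and 3.29 CPM in sstl-s YM.

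Other genes were highest in the early fertile anther alone. P-450 76M8, of a family that acts in diterpenoid synthesis, was at 3.52 CPM in sstl-s LpM and 42 CPM in SSTL-F YM (log2 ratio -3.54, -4.09 to -3.10), and at 8.33 CPM in SSTL-F LpM and 4.93 CPM in sstl-s YM. Os07g0599500 was at 3.61 CPM in sstl-s LpM and 33.1 CPM in SSTL-F YM (-3.16, -3.71 to -2.72), and at 5.12 CPM in SSTL-F LpM and 7.18 CPM in sstl-s YM. Xanthine dehydrogenase (Os03g0429800), an enzyme of purine breakdown, was at 456 CPM in sstl-s LpM and 1357 CPM in SSTL-F YM (-1.57, -1.62 to -1.53), and at 509 CPM in SSTL-F LpM and 596 CPM in sstl-s YM. In all 3 the 3 other libraries were much closer to each other than to SSTL-F YM. Of the other 9 among the 12 lowest genes with 100 or more counts, Os03g0335100 and Os04g0535000 had the same order, with log2 ratios of -2.56 and -2.27. Endosperm-specific gene 126, Os05g0539300, F-box protein 384, Os07g0593400, Os05g0484000, NAC119 and Os08g0527900 were instead lower in the late library of both comparisons, with sterile-late log2 ratios from -2.82 to -2.26 and fertile-late log2 ratios from -4.94 to -2.61.

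Photosynthesis and chlorophyll-binding genes had the highest median of all lists, 0.84, with 9 of 29 measured genes (31%) at least 2-fold higher and 1 (3.45%) lower in sstl-s LpM, beside 9.58% and 3.30% of all genes. In SSTL-F LpM over sstl-s YM 17 of the 29 were higher and none lower (all genes: 10.5% and 9.54%), with a median of 1.09. Their summed level was 1062 CPM in sstl-s LpM and 509 CPM in SSTL-F YM, and 1113 CPM in SSTL-F LpM and 608 CPM in sstl-s YM. The light-harvesting gene CAB2R was at 231 CPM in sstl-s LpM and 32.5 CPM in SSTL-F YM (7.11-fold, 6.34 to 8), and at 125 CPM in SSTL-F LpM and 74.4 CPM in sstl-s YM. CAB1R was at 134 CPM in sstl-s LpM and 22.8 CPM in SSTL-F YM (2.54, 2.35 to 2.75). A leaf-type ferredoxin-NADP+ oxidoreductase went against the list, at 12.7 CPM in sstl-s LpM and 37.3 CPM in SSTL-F YM (-1.54, -1.84 to -1.27). The summed levels of both late libraries were above those of both early ones.

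Among 26 measured MADS-box genes 4 (15.4%) were at least 2-fold higher and none lower in sstl-s LpM, beside 9.58% and 3.30% of all genes (median log2 ratio 0.36). The ovule identity gene MADS13 was at 88.4 CPM in sstl-s LpM and 19.9 CPM in SSTL-F YM (2.15, 1.93 to 2.38), and at 58.7 CPM in SSTL-F LpM and 55.8 CPM in sstl-s YM. Its relative MADS21 was at 17.3 CPM in sstl-s LpM and 4.72 CPM in SSTL-F YM (1.85, 1.41 to 2.36). MADS29, also known from ovules and seeds, was at 4.88 CPM in sstl-s LpM and 1.77 CPM in SSTL-F YM, and MADS47 was at 1.9 CPM in sstl-s LpM and 0.394 CPM in SSTL-F YM. SSTL-F YM was the lowest of the 4 libraries for all 4, as it was for DROOPING LEAF. In MADS13, MADS21 and MADS29 the other pair lay within 2-fold (fertile-late log2 ratios 0.07, 0.32 and 0.10), while MADS47 had a fertile-late log2 ratio of 1.55. The part of carpel tissue in these values was not tested.

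The shares of the other transcription factor families follow. Of 63 measured NAC factors 17 (27%) were higher and 10 (15.9%) lower, beside 9.58% and 3.30% of all genes (median log2 ratio 0.33). The whole counting interval lay past 2-fold for 5 of the higher and 4 of the lower ones. Genes with few counts passed 2-fold more often. Of all 5708 genes with 10 to 49 counts in the higher library, 1205 were higher and 339 lower. The part of depth in the NAC shares was not tested. NAC119 was lowest, at 2.17 CPM in sstl-s LpM and 10.7 CPM in SSTL-F YM (-2.26, -3.01 to -1.66). Of 36 MYB factors 7 (19.4%) were higher and 1 (2.78%) lower. Of 46 WRKY factors 3 (6.52%) were higher and 1 (2.17%) lower, and of 96 bHLH factors 8 (8.33%) and 3 (3.12%). These shares were close to those of all genes or slightly below. The median log2 ratios were 0.37 for WRKY and 0.31 for bHLH factors, beside 0.08 over all genes. Of 5 bZIP factors 1 was higher and none lower. The highest WRKY factor with 100 or more counts was WRKY45, a regulator of disease resistance, at 9.21 CPM in sstl-s LpM and 4.23 CPM in SSTL-F YM (1.10, 0.59 to 1.67).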

How the data were processed

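The authors extracted anther RNA with TRIzol, sequenced single-end libraries on a HiSeq 2000 and processed the reads with CLC Genomics Workbench 11 against RAP-DB; mapping settings and genome build are not given in the sources used here. For each library the authors deposited whole-number total counts per gene, on which all results rest, beside RPKM and TPM columns they made from them. The deposited CPM column, whose sum differs from library to library, was taken as a score and left out, as was TPM. The deposited RPKM values entered as an alternative, log2(RPKM + 1).

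CPM here is the count over the library's total count, times 1000000. Log2 ratios have a prior count of 1. Genes with 10 or more counts in either library were kept, and differences were counted from 2-fold on. With 1 library a group there is no model and no p-value. Intervals (exact, 95%, Clopper-Pearson on the read shares) cover counting error only, and were checked on simulated counts, and a gene at 0 is set against a floor of 3 counts per library. Reads carry no molecular identifiers. Gene lists were made from words in gene names, and a list is described by its counts and median beside those of all genes, with no test. Members and lists were chosen with earlier results of these data known. The genes named are the 12 with the largest ratio in each direction among those with 100 or more counts in the higher library, the extreme members of each list at that depth, all matched regulators and sporopollenin genes, and 17 of the genes the study gives by identifier, each of which was matched. The clock list, MTR1, the cinnamate hydroxylase, polyketide synthase 10, the PRR genes, CCA1, DROOPING LEAF and further list members and unnamed genes outside this rule were chosen after their values were seen. The authors' counting could split reads of near-identical copies, which touches SWEET, subtilisin, peroxidase, GDSL, lipid transfer and light-harvesting genes. The alternatives were TMM factors (edgeR 4.0.16, R 4.3.3) over 4 or 2 libraries, DESeq2 1.42.0 size factors, totals without the 10 most abundant genes, prior counts of 0.25 and 5, RPKM, and no filter or at least 50 counts. Further tools were scipy 1.17.1, numpy 2.4.6, pandas 2.3.3 and matplotlib 3.10.9 in Python 3.11.15.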

Additional observations from a re-analysis of the deposited data

How the results depend on the processing

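No paired analysis was possible because each genotype and stage has 1 library and the labels carry no replicate numbers, and no library could be left out. No ratio, median or count changed direction past 2-fold under the alternatives run. TMM and DESeq2 scaling put the all-gene median at 0.00 and the median of the sporopollenin list at 0.06. With 1984 to 1987 genes at least 2-fold higher and 884 to 887 lower in sstl-s LpM, they tilted the calls less. Counts of genes moved with the filter and the unit, by construction of fewer or more genes tested or of a pseudocount that draws low genes together. Genes at least 2-fold higher in sstl-s LpM than in SSTL-F YM numbered 1166 with RPKM, 3612 with no filter and 1030 with at least 50 counts, and genes lower 282, 2069 and 432 in the same order of settings. With RPKM the median of the regulators was -0.17 and that of the sporopollenin list 0.24. The pair counts with RPKM, no filter and at least 50 counts were 1457, 5681 and 1729 for sstl-s LpM and SSTL-F YM, 900, 5189 and 1254 for sstl-s LpM and SSTL-F LpM, 1122, 5470 and 1408 for sstl-s LpM and sstl-s YM, 1971, 6701 and 2321 for SSTL-F LpM and SSTL-F YM, 1159, 5505 and 1476 for sstl-s YM and SSTL-F YM, and 2812, 8514 and 3126 for SSTL-F LpM and sstl-s YM. Under these 3 settings, genes higher in both late libraries numbered 455, 1394 and 458, genes lower in both 150, 488 and 202, genes higher in both sterile libraries 115, 587 and 114, and genes higher in both fertile libraries 21, 445 and 42. A prior count of 5 gave 219 genes higher in both sterile and 59 higher in both fertile libraries. The correlation of the 2 ratios ranged from 0.239 with no filter to 0.373 with at least 50 counts. Among genes at least 2-fold lower in SSTL-F LpM than in sstl-s YM, the median sterile-late log2 ratio of 0.13 was -0.11 with at least 50 counts, so its sign is not fixed. Of 75 named genes past 2-fold, 1 fell short under TMM, none under DESeq2 and 9 with RPKM.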

Other observations

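Lists that enter no account above are given by their values, beside 9.58% higher and 3.30% lower of all genes. Of 131 measured heat shock and chaperone genes 13 were at least 2-fold higher and 3 lower in sstl-s LpM than in SSTL-F YM, with a median log2 ratio of 0.13. Defence and senescence genes numbered 17 higher and 4 lower of 90 (median 0.15), with chitinase 9, an enzyme that cleaves chitin, at 15.7 CPM in sstl-s LpM and 3.15 CPM in SSTL-F YM (2.28, 1.77 to 2.91). Germin-like protein 1-1 was the lowest of them with 100 or more counts, at 32.5 CPM in sstl-s LpM and 63.9 CPM in SSTL-F YM (-0.97). Jasmonate and gibberellin genes had 8 higher and 1 lower of 35 (median 0.08), and auxin genes 12 and 7 of 92 (median 0.07), among them the auxin-induced SMALL AUXIN-UP RNA 56 at 35.8 CPM in sstl-s LpM and 9.94 CPM in SSTL-F YM (1.84, 1.53 to 2.18).

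Wall and energy lists lay close to the all-gene median. Pectin enzymes had 5 higher and 1 lower of 17 (median 0.23), the lower one being pectin methylesterase 20, at 108 CPM in sstl-s LpM and 254 CPM in SSTL-F YM (-1.23, -1.33 to -1.13). Cellulose and glucan genes had 5 and 3 of 63 (median -0.10), expansins and arabinogalactan proteins 4 and 6 of 51, and genes of the cytoskeleton 1 and none of 30 (median -0.13). Glycolysis and fermentation genes had 2 higher and none lower of 36 (median 0.16), and the cytosolic glyceraldehyde-3-phosphate dehydrogenase that the study names was at 1137 CPM in sstl-s LpM and 708 CPM in SSTL-F YM (0.68, 0.64 to 0.72). Enolase Os10g0167300, a glycolytic enzyme that the study also names, was at 1158 CPM in sstl-s LpM and 867 CPM in SSTL-F YM (0.42, 0.38 to 0.46). Fatty acid, wax and cutin genes had 1 and 3 of 24, with beta-ketoacyl-CoA reductase 1, of very-long-chain fatty acid and wax synthesis, at 264 CPM in sstl-s LpM and 88.4 CPM in SSTL-F YM (1.58, 1.47 to 1.69). Aquaporins had 3 and 1 of 20 (median 0.18) and starch breakdown 1 and none of 8 (median 0.29). None of 29 ribosomal protein genes (median 0.24) or 16 genes of proton pumps and mitochondrial energy (median 0.12) passed 2-fold, and the summed level of the ribosomal protein genes was 4171 CPM in sstl-s LpM and 3525 CPM in SSTL-F YM, against 3015 CPM in SSTL-F LpM and 4520 CPM in sstl-s YM.

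Glutamate decarboxylase, which makes the amino acid GABA and which the study names, was at 5.87 CPM in sstl-s LpM and 7.68 CPM in SSTL-F YM (-0.38, -0.89 to 0.11), and at 3.82 CPM in SSTL-F LpM and 24.7 CPM in sstl-s YM (-2.67). It was high in sstl-s YM alone. The non-specific lipid transfer protein d11, picked after its values were seen, was high in sstl-s LpM alone, at 8.76 CPM in sstl-s LpM and 1 count in SSTL-F YM, and at 0.781 CPM in SSTL-F LpM and 0.26 CPM in sstl-s YM.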
